A study of Canis lupus familiaris with 7 samples.

Results

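GARNL3 and a set of regulators of the small GTPase Rap were followed over 7 primary osteosarcomas from dogs, 4 of them DLG2 deleted and 3 DLG2 wild type. Members were taken by name: every non-control probe of the canine array whose gene name was GARNL3, RAP1GAP, RAP1A, RAP1B, RAP2A, RAPGEF1, RAPGEF2, SIPA1, SIPA1L1 or RALGDS. Of these 10 genes, 7 had a probe, 12 probes in all out of 43603. RAP1GAP, RAPGEF1 and SIPA1 had no probe under those names and were not analysed here. GARNL3 was chosen by its measured difference between the same tumour groups, so its values are given as a description without a test.

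The deleted tumours came from a mixed German Shepherd and Collie cross aged 8 years (deleted tumour 1, sex label MC), a Rottweiler cross aged 9 years (deleted 2, FS), a Greyhound aged 6 years (deleted 3, MC) and a Great Pyrenees aged 7 years (deleted 4, FS). The wild-type tumours came from a Boxer aged 12 years (wild type 1, FS), a Labrador Retriever cross aged 10 years (wild type 2, FS) and a Bull Mastiff aged 8 years (wild type 3, MC). All specimens came from veterinary clinics, with no treatment given in the labels, and each was hybridised to 1 array, so breed, age and tumour cannot be separated. Tumours are the replicates, 1 from each dog. DLG2 encodes a membrane-associated guanylate kinase that scaffolds other proteins.

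Rap proteins are small GTPases of the Ras family that switch between a GTP-bound active form and a GDP-bound inactive form. Guanine nucleotide exchange factors such as RAPGEF1 and RAPGEF2 load them with GTP, and GTPase-activating proteins such as RAP1GAP, SIPA1 and SIPA1L1 speed GTP hydrolysis and switch them off. Active Rap is best known for inside-out activation of integrins and for the control of cell junctions, by which cells hold on to matrix and to each other. GARNL3 is named for a domain of the Rap GTPase-activating type, and its cellular role is far less studied.

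The sequences of the probes behind the GARNL3 difference are shown first, because they overlap and are therefore not independent readings of the gene. All lie on the minus strand of chromosome 9 in canFam2 coordinates from the array design. A_11_P083571 lies at chr9:59280190-59280249 and A_11_P083566 at chr9:59280182-59280241, and their capitals mark the 52 bases that they share. A_11_P119191 lies at chr9:59276462-59276521, and bases 29 to 58 of it are shown, in capitals throughout because they belong to the 32 bases it shares with A_11_P0000016845. The last sequence is the RAPGEF2 probe A_11_P0000027089 on the plus strand, chr15:59368104-59368163, shown without capitals because it was the other member probe whose tumour groups did not overlap.
A_11_P083571: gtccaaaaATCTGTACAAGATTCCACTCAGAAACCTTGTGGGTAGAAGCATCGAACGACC
A_11_P083566: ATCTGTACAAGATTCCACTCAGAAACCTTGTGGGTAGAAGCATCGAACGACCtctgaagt
A_11_P119191: ACCATCAGTCCCCTTGTAATAAAGGTGGTA
A_11_P0000027089: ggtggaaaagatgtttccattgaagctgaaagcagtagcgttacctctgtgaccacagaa
A_11_P0000016845 carries no gene symbol in the array design, only the name TC72072, and lies at chr9:59276434-59276493. It was therefore no member and is described beside A_11_P119191. The overlapping pair and A_11_P119191 are 867 bases apart on the transcript and 3720 bases apart in the genome. The position of each probe relative to exons and untranslated regions was not analysed here.

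The arrays held between 30280 and 34538 probes well above background, the highest number in wild-type tumour 3, and no spot was saturated. Wild-type tumours 1 and 2 correlated at r = 0.987 over the kept probes, against 0.935 to 0.966 for the other 20 pairs of arrays, so results are also given with that pair counted as 1 tumour. The osteoblast markers COL1A1, COL1A2, ALPL, BGLAP and RUNX2 were well above background in all 7 tumours, and SP7, IBSP and SPP1 were not analysed here. Each of the 5 had a negative difference, from -1.45 at BGLAP to -0.12 at COL1A1, with a median of -0.29. In 0 of them were the groups free of overlap, and the summed levels overlapped (17.24 to 18.49 in deleted, 18.10 to 18.36 in wild type). The DLG2 probe read 10.37, 11.44, 10.51 and 10.84 from deleted tumour 1 to deleted tumour 4, and 10.91, 12.03 and 11.75 from wild-type tumour 1 to wild-type tumour 3 on the normalized log2 scale. The DLG2 groups overlapped and differed by -0.77 (limma adjusted p = 0.71), so this probe did not separate the labels. It reads RNA at chr21:18338004-18338063, outside the coordinates that the authors give for the focal deletion in dog without naming an assembly. It is therefore a weak check of labels that refer to copy number. Among marker lists, the summed log2 level of the 5 cartilage genes was 11.23 to 15.23 in deleted and 10.58 to 11.13 in wild-type tumours, with 0 of the 5 genes separating the groups singly. The list was high in deleted tumours 2 and 3 (a median of 2.53 and 0.86 above the mean of each gene), while deleted tumours 1 and 4 (-0.55 and -0.56) lay near the wild-type tumours (-0.56 to -0.46). Of 7 leukocyte genes, CD3D, CD3E and MS4A1 were higher without overlap in deleted tumours. Of all 11115 genes, 461 were so in that direction, and 7.74% did not overlap in either direction. MS4A1 was well above background in 3 deleted and 0 wild-type tumours, so it passed the filter only through the deleted group. LAPTM5 (-0.65) and PTPRC (-0.14) had negative differences, and the summed leukocyte level overlapped (11.03 to 13.20 against 11.47 to 12.44). The osteoclast list had the lowest median difference (-1.55), with 0 of 5 genes free of overlap, summed levels of 13.38 to 16.09 against 14.98 to 17.80 and wild-type tumour 3 highest. The adipocyte median was 0.82, with 1 of 5 genes (LPL) free of overlap, and the endothelial median was 0.51, with 0 of 5. Their summed levels overlapped. The adipocyte list was high in deleted tumour 4 alone (3.125), while deleted tumours 1 to 3 (-0.61 to -0.28) lay near the wild-type tumours (-0.58 to -0.36). The adipocyte median was the value of CIDEC, which was well above background in only 1 deleted and 2 wild-type tumours. In pieces of tumour, fewer cells of a type and less RNA per cell cannot be told apart.

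GARNL3 RNA was lower in every deleted tumour than in any wild-type tumour, at each of its 3 probes. Such a lack of overlap, lower in deleted, was found in 4.25% of all kept probes, and nothing is read from it here because this contrast chose the gene. All levels below are log2 values of background-corrected, quantile-normalized intensity unless another scale is named. At A_11_P119191 the level was 8.54, 8.48, 8.24 and 8.61 from deleted tumour 1 to deleted tumour 4, and 10.56, 10.30 and 9.94 from wild-type tumour 1 to wild-type tumour 3. The lowest wild-type value stood well clear of the highest deleted value. On this scale, though not in ratios of the processed intensity given below, the deleted tumours lay closer to each other than the wild-type tumours did. The mean was 8.47 ± 0.16 (SD, n = 4) over deleted tumours. It was 10.26 ± 0.31 (SD, n = 3) over wild-type tumours, so that deleted minus wild type came to -1.79, or 3.47-fold more in the wild-type tumours. Among the 32309 probes kept after a filter on dim probes, 32 had a more negative difference. Nothing is read from that place either, because this contrast chose the gene.

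The unnamed probe TC72072, which shares 32 of its bases with A_11_P119191, gave the same order of groups. Its level was 8.13, 7.93, 7.77 and 8.13 from deleted tumour 1 to deleted tumour 4, and 9.96, 9.64 and 9.35 from wild-type tumour 1 to wild-type tumour 3. The difference was -1.66, or 3.16-fold. In both probes wild-type tumour 1 was the highest and deleted tumour 3 the lowest of the 7.

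The overlapping pair showed the same direction with a smaller difference on this scale. At A_11_P083571 the level was 6.77, 6.75, 6.71 and 6.85 in deleted tumours and 7.66, 7.46 and 7.34 in wild-type tumours, a difference of -0.72. At A_11_P083566 it was 6.73, 6.79, 6.74 and 7.02 in deleted tumours and 7.58, 7.37 and 7.37 in wild-type tumours, a difference of -0.62. Neither pair of groups overlapped, and wild-type tumour 1 was again the highest.

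**Figure D1:**
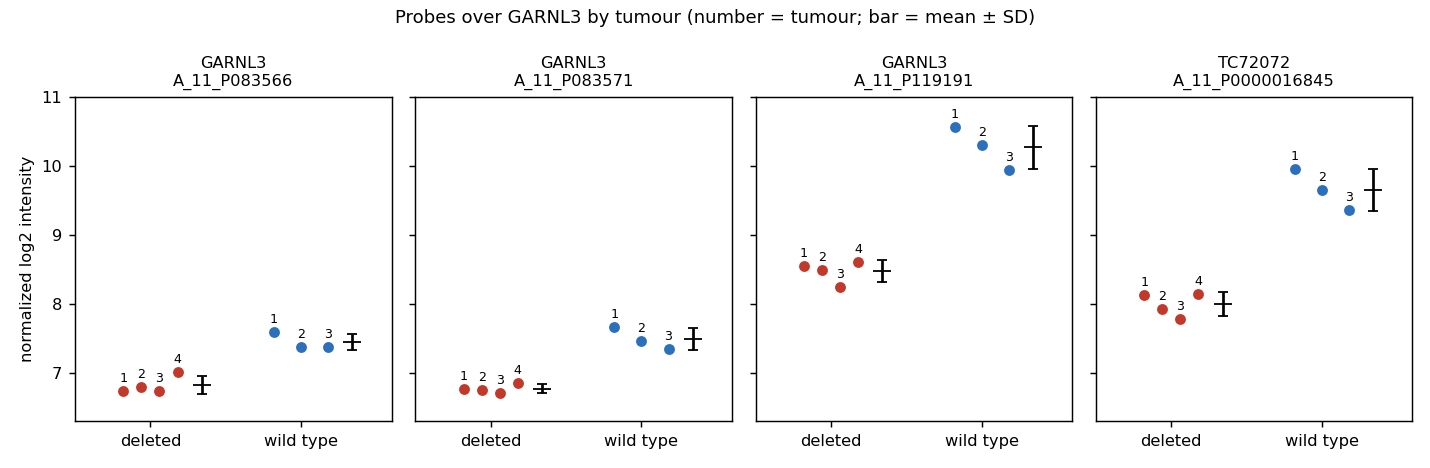
Normalized log2 intensity (vertical axis) of the 3 GARNL3 probes and of the unnamed probe TC72072 in each tumour, deleted in red and wild type in blue, with the tumour number above each point and bars for the mean ± SD. In every panel all 4 deleted tumours sit below all 3 wild-type tumours, and A_11_P119191 spans from 8.24 to 10.56.

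The size of the GARNL3 difference at the dim pair depended on how background and scaling were handled. Its sign stayed negative, though the difference was small with normexp and scaling to the 75th percentile. In the intensity as processed by the scanner software, A_11_P083571 read 15.5, 12.5, 10.8 and 19.7 from deleted tumour 1 to deleted tumour 4, and 101.6, 71.4 and 88.6 from wild-type tumour 1 to wild-type tumour 3. A_11_P119191 read 272.1, 197.6, 168.4 and 264.7 in deleted tumours and 1564, 1140 and 1307 in wild-type tumours on the same scale. The offset of 50 added to every spot is larger than the processed intensity of the dim pair in the deleted tumours, so it brings the logarithms of such spots together.
With the processed intensity scaled to the 75th percentile of each array, the difference was -2.21 at A_11_P083571, -1.96 at A_11_P083566, -2.19 at A_11_P119191 and -2.20 at TC72072. With an offset of 10 in place of 50 it was -1.20, -1.04, -1.94 and -1.87 in that order. With normexp and scaling to the 75th percentile, the differences were -0.20, -0.08, -1.94 and -1.72 in the same order. The median difference over all kept probes was 0.32 there, and taking it off gave -0.51, -0.40, -2.25 and -2.03. That median was no shift common to all probes. Compared with the reported scale, the dim member probes moved up and the brighter ones moved down. The statement that the probes at the 2 positions differ in size therefore holds for some of these scales and not for others.

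**Figure D2:**
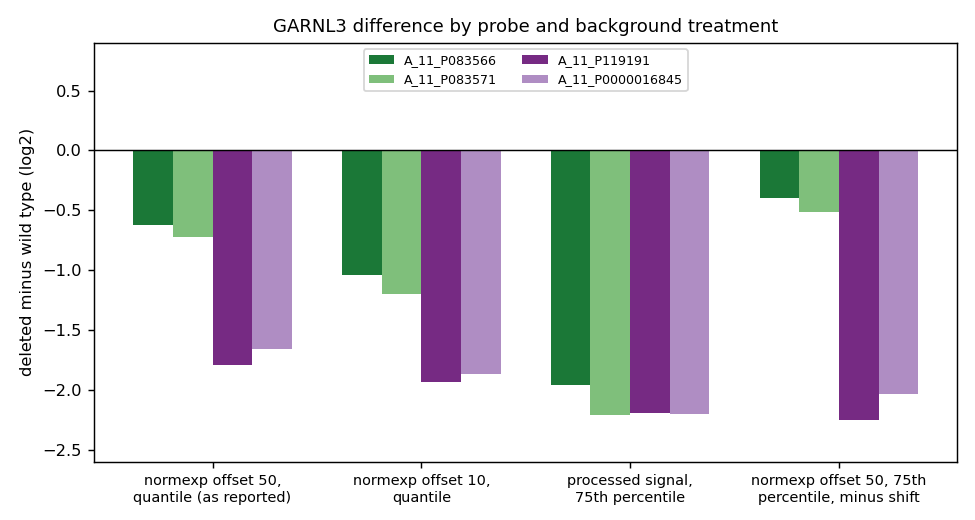
Deleted minus wild type on the log2 scale (vertical axis) for the 3 GARNL3 probes and TC72072 (bars) under 4 treatments of background and scaling. In the last one the median difference of all kept probes is taken off. All bars point down, and the pair in green reaches -2.21 and -1.96 with processed signal against -0.72 and -0.62 as reported.

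The GARNL3 difference is also given within slide and within scanner-software session, the latter a split of the arrays at noon. Every deleted tumour lay below every wild-type tumour, so the sign of this difference was fixed in any such subset. These values therefore do not test for a batch. Both groups shared only the slide that held deleted tumours 2 and 3 with wild-type tumour 2, where the difference at A_11_P119191 was -1.93. Within session 1 (3 deleted, 1 wild type) it was -1.85, and within session 2 (1 deleted, 2 wild type) it was -1.70. Age partly followed the groups, 6 to 9 years in the deleted and 8 to 12 years in the wild-type dogs, and the difference was -1.49 in a fit with age. With wild-type tumours 1 and 2 counted as 1 tumour it was -1.71. The median differences of the osteoclast and osteoblast lists described above had the same sign as the GARNL3 difference. So had that of a nerve and glia list (-0.31 over 3 genes). The part of the marker lists in the GARNL3 difference was not tested.

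No other member was called as changed. Of the 9 probes of RAP1A, RAP1B, RAP2A, RAPGEF2, SIPA1L1 and RALGDS, all of which passed the filter, 0 were called at an unadjusted p below 0.05 with an adjusted p below 0.1. The share called among all kept probes was 0%. At an unadjusted p below 0.05 alone the members again gave 0 of 9, against 7.27% of all kept probes. Under alternative settings RAPGEF2 A_11_P086466 had an unadjusted p of 0.0251 (difference 0.75, adjusted p = 0.664, processed signal quantile-normalized), and RAP1A A_11_P129136 had 0.0316 with sex label in the limma fit (-0.42, adjusted p = 0.631) and 0.0222 without deleted tumour 1 (-0.50, adjusted p = 0.558). Groups did not overlap in 1 of 9, higher in deleted, against 8.15% of all kept probes in either direction and 3.9% in that one. A positive difference was found at 7 and a negative at 2 of these probes, with a median of 0.09, and adjusted p (limma, Benjamini-Hochberg over all kept probes) ran from 0.791 to 0.995. With 4 and 3 tumours there are 35 splits. The exact two-sided permutation test used here doubles the share of splits in the smaller tail, so it cannot go below p = 0.0571.

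The Rap GTPases themselves are RAP1A, RAP1B and RAP2A. RAP1A and RAP1B are near-identical proteins that act on integrins and junctions, and RAP2A acts on the cytoskeleton through kinases of the TNIK family.
RAP1A was read by a pair of probes on chromosome 17. At A_11_P088361 the level was 10.94, 10.42, 10.99 and 10.97 from deleted tumour 1 to deleted tumour 4, and 10.39, 10.87 and 10.96 from wild-type tumour 1 to wild-type tumour 3. Deleted tumour 2 and wild-type tumour 1 stood low, each apart from the rest of its group. The difference was 0.09, with a 95% interval of -0.39 to 0.57 and an adjusted p of 0.959 by limma.
At the other RAP1A probe, A_11_P129136, the level was 9.49, 8.63, 9.14 and 8.90 in deleted tumours and 9.26, 9.39 and 9.53 in wild-type tumours. Deleted tumour 1 lay among the wild-type tumours while the other deleted tumours lay below them. The difference was -0.35, with an interval of -0.85 to 0.14, an adjusted p of 0.791 and an exact permutation p of 0.171. The probes of RAP1A thus had differences of opposite sign, and both intervals include 0.

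RAP1B was the member with the smallest difference. Its level at A_11_P088716 was 10.13, 9.68, 10.45 and 10.00 in deleted tumours and 9.94, 9.93 and 10.30 in wild-type tumours. The wild-type values fell inside the range of the deleted values. The difference was 0.01 (95% interval -0.46 to 0.48, limma adjusted p = 0.995).
RAP2A at A_11_P0000022395 was at 10.48, 9.65, 10.13 and 9.52 in deleted tumours and 9.85, 9.97 and 10.39 in wild-type tumours. Deleted tumours 1 and 4 marked the top and the bottom of all 7. The difference was -0.12 (95% interval -0.75 to 0.51, limma adjusted p = 0.959).

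RAPGEF2, an exchange factor that activates Rap and is also called PDZ-GEF1, was read by 3 probes on chromosome 15. At A_11_P0000027089, whose sequence is given above, the level was 6.72, 6.80, 6.76 and 6.71 in deleted tumours and 6.68, 6.66 and 6.69 in wild-type tumours. All deleted values lay above all wild-type values, but by a narrow margin. The difference was 0.07 (95% interval -0.11 to 0.25, limma adjusted p = 0.91), and the exact permutation p was 0.0571, the smallest that the permutation test used here can give.
At A_11_P086466, which spans 529 bases of genome and so crosses an exon junction, the level was 7.03, 6.95, 7.13 and 6.86 in deleted tumours and 6.77, 6.90 and 6.82 in wild-type tumours. The groups overlapped only between deleted tumour 4 and wild-type tumour 2. The difference was 0.16 (95% interval -0.07 to 0.40, limma adjusted p = 0.797).
At A_11_P00000447 the level was 9.61, 9.46, 9.97 and 8.96 in deleted tumours and 9.17, 9.21 and 9.81 in wild-type tumours. The wild-type values fell inside the wider range of the deleted values. The difference was 0.10 (95% interval -0.54 to 0.74, limma adjusted p = 0.968).

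SIPA1L1, a GTPase-activating protein for Rap that is also known as SPAR and binds a relative of DLG2 at synapses, was read by A_11_P093341 on chromosome 8. Its level was 11.85, 11.25, 11.93 and 12.03 in deleted tumours and 11.35, 11.41 and 12.22 in wild-type tumours. The low values came from deleted tumour 2 and wild-type tumours 1 and 2, so they crossed the groups. The difference was 0.11 (95% interval -0.56 to 0.77, limma adjusted p = 0.966).
RALGDS, an exchange factor for Ral GTPases that binds active Ras and Rap, was read by A_11_P083281 on chromosome 9, which spans 351 bases of genome and crosses an exon junction. Its level was 6.73, 6.90, 6.71 and 6.84 in deleted tumours and 6.65, 6.74 and 6.65 in wild-type tumours. Wild-type tumour 2 lay within the deleted range and the other wild-type tumours below it. The difference was 0.11 (95% interval -0.10 to 0.33, limma adjusted p = 0.873).
RALGDS and the RAPGEF2 probes A_11_P086466 and A_11_P0000027089 were dim, and their differences were larger under other background corrections or scalings. With processed signal at the 75th percentile they were 0.27, 0.58 and 0.23 in that order. With normexp at the 75th percentile, where the median difference over all kept probes was 0.32, they were 0.86, 0.80 and 0.82. None of them was called under either scaling.

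**Figure D3:**
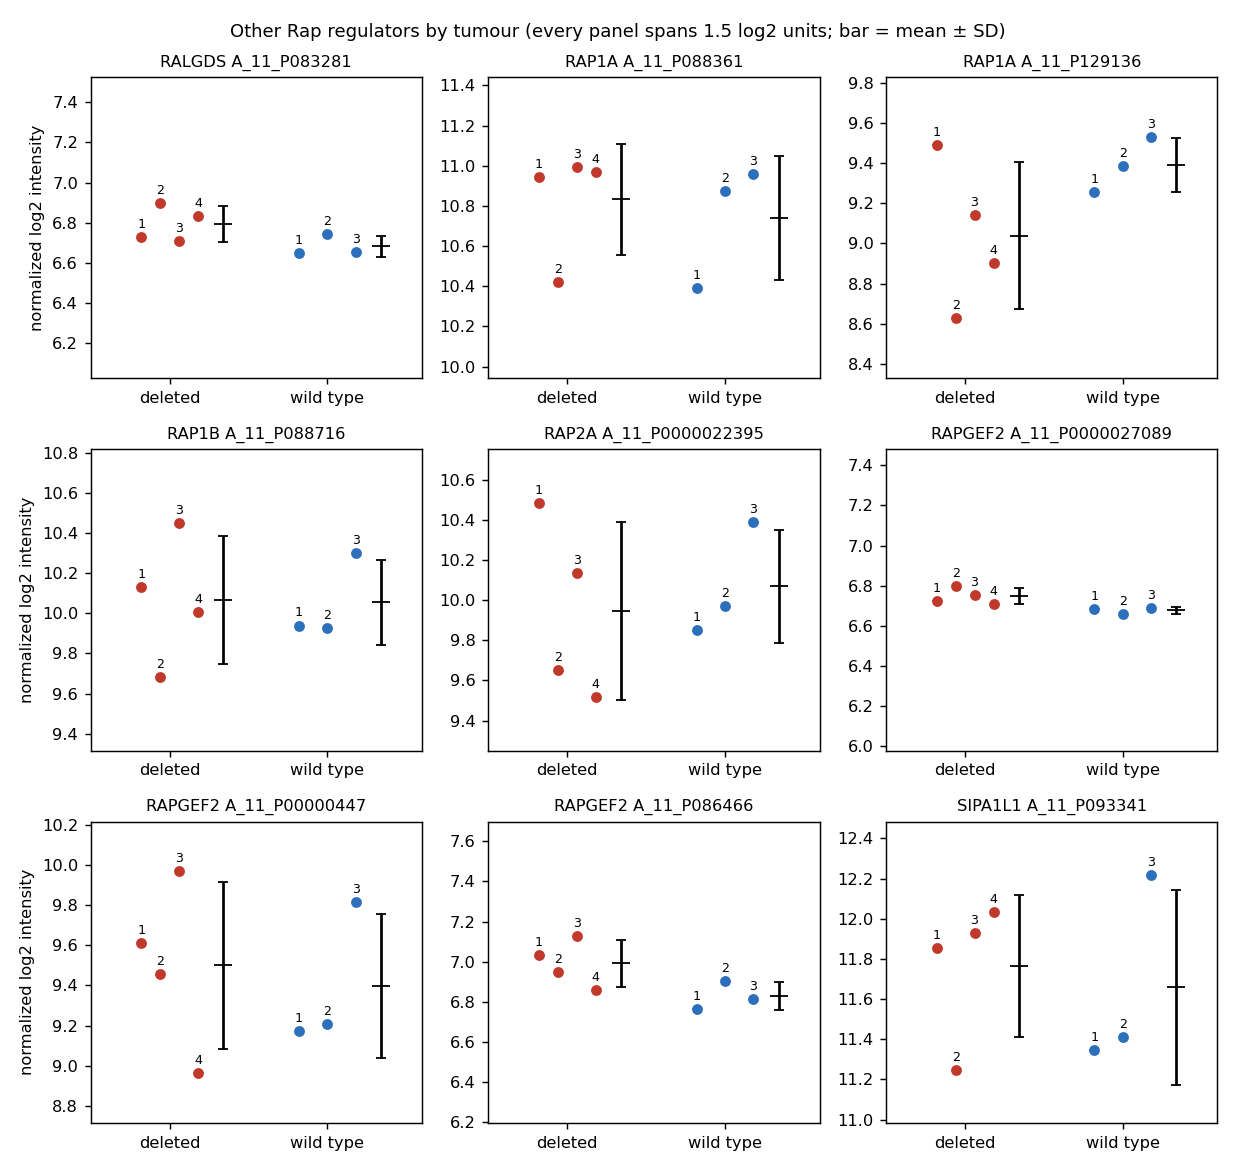
Normalized log2 intensity (vertical axes, each spanning 1.5 log2 units) of the 9 probes of the other members in each tumour, deleted in red and wild type in blue, with bars for the mean ± SD. The groups overlap in 8 of the 9 panels, and in the panel of RAPGEF2 A_11_P0000027089 the lowest deleted tumour is at 6.71 and the highest wild-type tumour at 6.69.

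Some tumours stood low or high at several members. Deleted tumour 2 was the lowest of all 7 at RAP1A A_11_P129136 (8.63), RAP1B (9.68) and SIPA1L1 (11.25), and the lowest of its group at RAP1A A_11_P088361. At the dim probes of RALGDS (6.90) and RAPGEF2 A_11_P0000027089 (6.80) it was instead the highest of all 7. The same tumour had the highest cartilage list (2.53) and the lowest osteoblast list (-1.38). Wild-type tumour 3 was the highest of its group at both RAP1A probes, RAP1B, RAP2A, SIPA1L1 and RAPGEF2 A_11_P00000447, and had the highest osteoclast list (2.77). The part of these cell types in the member values was not tested. Over the 7 tumours the SD of member probes ran from 0.05 at RAPGEF2 A_11_P0000027089 to 0.98 at GARNL3 A_11_P119191, against a median of 0.26 over the kept probes.
A DLG2 difference that itself varied with the sex label was looked for with an interaction term in limma. The smallest adjusted p among the probes of the other members was 0.857, and the term rests on a single wild-type tumour with the label MC.

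Of 45 further gene symbols of Rap and Ral signalling, 31 had a probe that passed the filter, and 1 probe per gene was used. MLLT4, which was measured, and AFDN, which had no probe, are the former and the current symbol of the same gene. Of these 21 were higher and 10 lower in the deleted tumours, 0 were called, and the median difference was 0.08, against 0.01 over all 11115 genes. At an unadjusted p below 0.05 there were 2, or 6.45%, against 7.59% of all genes, and 1 had groups that did not overlap, or 3.23%, against 7.74%.
TSC2, a GTPase-activating protein for RHEB with a domain of the same family as Rap GTPase-activating proteins, was at 12.69, 12.50, 12.33 and 12.32 in deleted tumours and 12.16, 12.07 and 12.12 in wild-type tumours. Every deleted tumour lay above every wild-type tumour, with a difference of 0.34 that was not called (limma adjusted p = 0.621). RGL1, a relative of RALGDS, was at 7.40, 7.28, 7.73 and 7.20 in deleted tumours and 7.58, 7.94 and 7.95 in wild-type tumours. Its groups overlapped through deleted tumour 3, and the difference was -0.42 (limma adjusted p = 0.665).

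The remaining genes with the smallest p values are given by role, and none of them was called. Among exchange factors, the difference was 0.22 for RAPGEF3, the cAMP-activated exchange factor EPAC1, and 0.11 for RAPGEF6, a close relative of RAPGEF2. In the adaptor group it was 0.26 for RAP1GDS1, which binds several small GTPases, and 0.55 for BCAR1, the focal adhesion adaptor p130Cas. Of the Rap effectors, PLCE1, a phospholipase that binds Ras and Rap, stood at 0.26, ARAP3, a GTPase-activating protein for Arf that binds Rap, at 0.19 and KRIT1, a Rap partner at endothelial junctions, at -0.22. EXOC2, a subunit of the exocyst and a Ral effector, stood at 0.17. Adjusted p for these 8 genes ran from 0.709 for RAP1GDS1 to 0.892 for RAPGEF6 (limma).
By group, 5 of 6 measured exchange factors, 2 of 4 GTPase-activating proteins, 3 of 3 adaptors, 5 of 8 effectors and 5 of 9 genes of the Ral branch had a positive difference. RAP2C, the 1 further Rap GTPase measured, differed by 0.35 (limma adjusted p = 0.897).

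**Figure D4:**
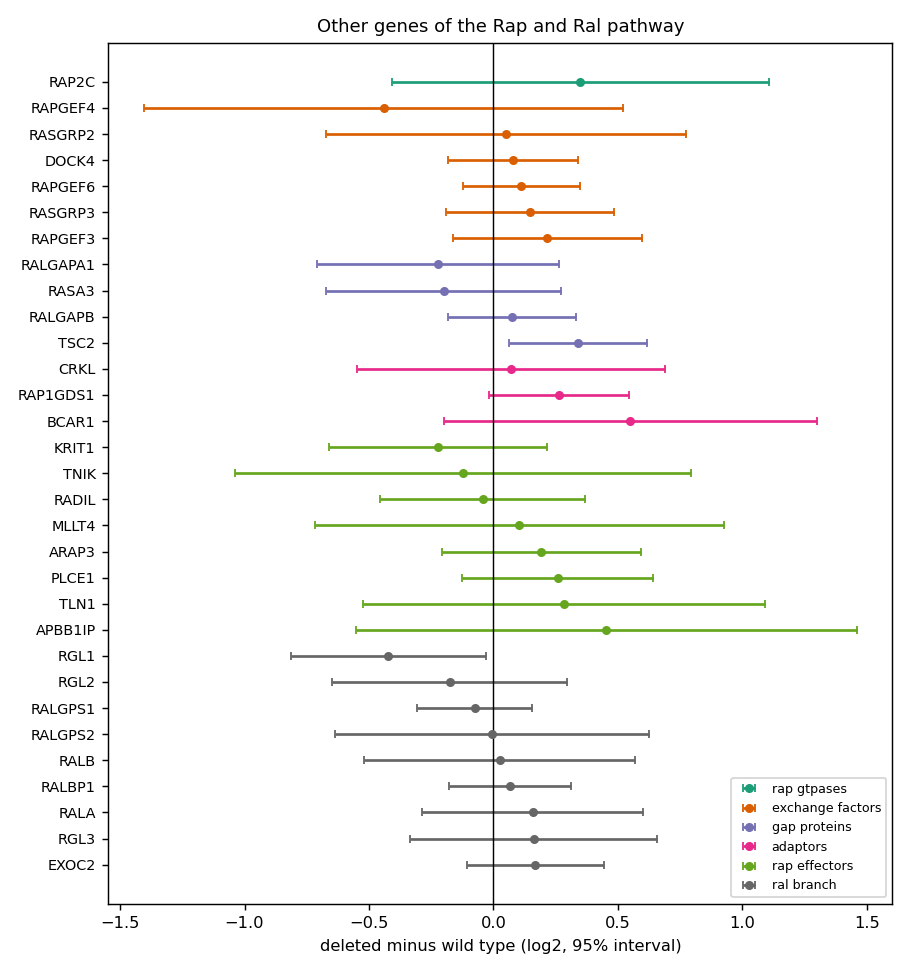
Deleted minus wild type on the log2 scale (horizontal axis) with 95% intervals from limma for the 31 further genes of Rap and Ral signalling, coloured by role. The intervals of TSC2 (0.06 to 0.62) and RGL1 (-0.81 to -0.03) leave out 0 and the others include it.

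None of the other genes reported here within 500 kb of the GARNL3 probes on chromosome 9 separated the groups as the GARNL3 probes did. In this window 21 reported probes of other genes had a gene symbol, of which 20, from 14 genes, passed the filter. Of these 7 were higher and 13 lower in the deleted tumours, 0 had groups that did not overlap and 0 reached an unadjusted p below 0.05, against 8.15% and 7.27% of all kept probes. Their median difference was -0.07 and the smallest adjusted p was 0.918 (limma), at FAM102A (0.07).
SLC2A8, a glucose transporter whose probe was 10.5 kb from the GARNL3 probes, was at 9.27, 9.74, 9.86 and 10.38 in deleted tumours and 10.24, 10.22 and 9.41 in wild-type tumours. Its groups overlapped throughout, with a difference of -0.15 (limma adjusted p = 0.959). LRSAM1, a ubiquitin ligase 74.4 kb away, differed by -0.07, and so did RALGPS1, an exchange factor for Ral 304.2 kb away on the other side. ANGPTL2, which encodes a secreted protein, varied most. At A_11_P167518 it was at 11.64, 12.09, 12.05 and 10.62 in deleted tumours and 13.13, 12.78 and 8.32 in wild-type tumours, with wild-type tumour 3 far below the rest.

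**Figure D5:**
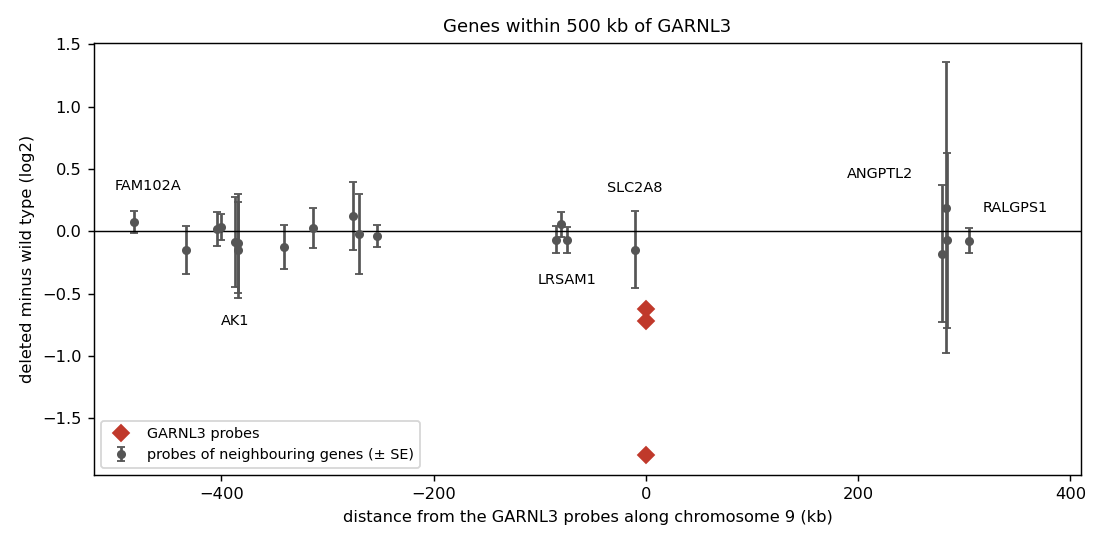
Deleted minus wild type on the log2 scale (vertical axis) against distance from the GARNL3 probes in kb (horizontal axis) for the 20 neighbouring probes reported (grey, ± SE) and the 3 GARNL3 probes (red diamonds, no error drawn). These neighbours lie between -0.18 and 0.19, above all 3 GARNL3 probes.

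The genes with a profile most like that of GARNL3 A_11_P119191 were found by the root mean square distance between log2 profiles over the 7 tumours, each centred on its own mean, among 17623 probes with a symbol, and are given as a description. The median distance was 0.95. The nearest was FKBP4 (0.23), a co-chaperone of HSP90, followed by FLRT3 (0.31), a leucine-rich repeat adhesion protein, LRRN3 (0.34), a neuronal leucine-rich repeat protein, IGF2BP1 (0.37), an RNA-binding protein, and ACSL3 (0.40), an acyl-CoA synthetase.
At its nearest probe FKBP4 was at 9.47, 9.12, 8.98 and 9.17 in deleted tumours and 10.81, 10.80 and 10.15 in wild-type tumours. All 5 genes were lower in every deleted tumour than in any wild-type tumour at these probes, by -1.40 for FKBP4, -1.36 for FLRT3, -1.47 for LRRN3, -1.30 for IGF2BP1 and -1.09 for ACSL3. Such a lack of overlap was found in 4.25% of all kept probes, and nothing is read from it, because likeness to GARNL3 chose these genes. LRRN3 was well above background in 3 of the 4 deleted tumours. The 3 further kept probes of FKBP4 ranged from -0.86 to -0.08, so its probes did not read alike, and the 2 further probes of FLRT3 were at -2.17 and -0.50. The dim GARNL3 probes stood at distances of 0.54 and 0.60, in places 58 and 113, because the distance counts the size of a difference as well as its order.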

How the data were processed

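RNA of 7 canine osteosarcomas was hybridised to 1-colour (Cy3) Agilent canine arrays. Spot intensity, local background intensity and a processed intensity were deposited for every spot, written by Agilent Feature Extraction 10.7.3.1. Multi-array averaging and a correction for batch are stated in the methods of the authors, and the batch was not given in the sources used here. Coordinates are those of the files (canFam2).

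Spot intensity was background-corrected with normexp (offset 50), quantile-normalized and put on the log2 scale with limma 3.58.1 in R 4.3.3. Of 45220 spots, 43803 were no controls. Outlier marks removed 144 values, and the spots of 50 replicated probes were averaged. Probes well above background on at least 3 arrays were kept, 32309 in all. A total of 2099 LOC numbers were matched to RefSeq symbols.

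The groups were tested against each other in limma (two-sided), adjusted over all kept probes, and with exact permutation tests in scipy 1.17.1. Code was tested on simulated data. Calls needed p below 0.05 and adjusted p below 0.1. Slides, sessions, age, sex label, other scalings and each tumour left out were tried as alternatives. The session was set here by whether the hour of feature extraction in the array header was before noon, and the date was not used. It refers to the scanner software, not to an RNA extraction.

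Members and lists were chosen with earlier results of these data known. Named were all members with a probe, the 10 pathway genes with the smallest p, the 5 genes most like GARNL3, genes within 500 kb of it and DLG2. In that window 1 gene is not reported here. Replicate numbers only name tumours. The number of arrays limits the precision.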

Additional observations from a re-analysis of the deposited data

Results flagged for a closer look

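In 4 of 49 probes looked at, 1 of the 4 deleted tumours stood apart from the others of its group by more than Dixon's limit for a gap relative to the range. Chance gives about 1 in 20, or 2.45 here. At RAP1A A_11_P088361 the gap was 0.915 of the range, with deleted tumour 2 low at 10.42 against 10.94 to 10.99. At RAP1GDS1 it was 0.852, with deleted tumour 2 low at 7.33 against 7.55 to 7.59. At FAM102A A_11_P083496 it was 0.919, with deleted tumour 3 low at 6.86 against 7.03 to 7.04. At ST6GALNAC6 A_11_P083516 it was 0.871, with deleted tumour 4 high at 7.23 against 6.92 to 6.96.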

How the results depend on the processing

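GARNL3 was lower in the deleted tumours at its 3 probes under all 21 alternatives run for each. The groups did not overlap, so this sign was fixed where tumours were left out, averaged or weighted. It was fixed too where only the filter or the test changed. The count of alternatives is therefore no measure of how firm the difference is. The difference at the dim pair was smallest with normexp at the 75th percentile, -0.20 at A_11_P083571 and -0.08 at A_11_P083566. At A_11_P119191 the difference was -2.19 with processed signal at the 75th percentile, -2.21 with processed signal quantile-normalized, -1.98 with array weights and -1.49 with age, and -1.96 to -1.65 with each tumour left out. The number of probes called, 0 as reported (2349 at an unadjusted p below 0.05), was 10 and 4 with those processed-signal settings, 23 with normexp at the 75th percentile, 4 with limma trend and robust, 8 with array weights, 1 with slide as random block, 3 with an offset of 10 (chosen after seeing the data), and 0 to 46 with each tumour left out, 46 without wild-type tumour 3. 

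The pathway median, 0.08, was 0.39 with normexp at the 75th percentile, where the median over all kept probes was 0.32, and -0.0368 with age. Pathway genes at an unadjusted p below 0.05, 2 as reported, were 0 with both processed-signal settings and normexp at the 75th percentile, 5 with age, 1 with trend and robust, slide as fixed block, session, wild-type tumours 1 and 2 as 1 tumour or offset 10, and 0 to 2 with each tumour left out (0 without wild-type tumour 2 or 3).

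None of the other members was called under any alternative (lowest adjusted p 0.403, limma), and signs turned as follows. RAP1A A_11_P088361 was -0.29 with age, -0.21 with normexp at the 75th percentile, -0.17 with slide as fixed block and -0.0829 to 0.23 with each tumour left out. RAP1B was -0.34 with age, -0.25 with normexp at the 75th percentile, -0.0578 with sex label, -0.0498 with the wild-type pair as 1 tumour and -0.12 to 0.14 with each left out. RAP2A was 0.0385 with array weights, 0.0643 with session and -0.30 to 0.0367 with each left out. RAPGEF2 A_11_P00000447 was -0.23 with age, -0.0904 with normexp at the 75th percentile, -0.0025 with the pair as 1 tumour and -0.0549 to 0.31 with each left out. SIPA1L1 was -0.44 with age, -0.20 with normexp at the 75th percentile, -0.0323 with the pair as 1 tumour and -0.0482 to 0.39 with each left out. The causes were not tested. Slide as fixed block leaves 1 residual degree of freedom. No paired analysis was possible because the replicate numbers were given in accession order and tie no tumours together.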
